A study of Homo sapiens with 5 samples.

Results

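The genes described here were 6 transcripts of the choroid plexus, TTR, FOLR1, CLIC6, AQP1, OTX2 and PRLR, out of 33538 genes listed for the organoids before transplantation and 36601 listed for the grafts. They were chosen by the counts of choroid plexus genes in the organoids before transplantation beside the grafts, after the low values of some of them in the grafts had been seen. The counts of D0 beside those of the grafts are therefore given as a description, with no test. Human brain organoids (hBOs) were made from H9: AAVS-ChR2-EYFP, a derivative of the human embryonic stem cell line H9 that carries a light-gated channel joined to a yellow fluorescent protein. Cells of D0 (organoids on day 42 of culture, when organoids were transplanted) and of grafted organoids (GBOs) were sequenced as droplet single-cell RNA libraries. Grafts were dissected, by their fluorescence, from the prefrontal cortex (PFC) or the hippocampus (HIP) of immunodeficient SCID-Beige mice at 2 or 4 months post transplantation (MPT). The 5 libraries were D0, HIP_2MPT, PFC_2MPT, HIP_4MPT and PFC_4MPT, with 1 library for each condition and with organoids or host brains pooled in a way that the labels do not give. The labels give the genotype WT for every library. D0 was dissociated with TrypLE and the grafts with Trypsin-EDTA. The age of the cells, the gene annotation and the release of the counting software also differed between D0 and all grafts. None of these differences can be told apart from transplantation.

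Each count was a unique molecular identifier (UMI), a tag that lets all copies of 1 RNA molecule be counted once. Barcodes of the grafts were called human cells when over 0.8 of their UMIs in the human-mouse dual reference were human, host cells when under 0.2 were, and mixed barcodes otherwise. This gave 4885 human cells in D0 and between 5952 (PFC_2MPT) and 8363 (PFC_4MPT) in the grafts, with a median of 9847 UMIs per cell in D0 and of 1253 to 2759 in the grafts. Host cells numbered 916 in HIP_2MPT, 2071 in HIP_4MPT, 772 in PFC_2MPT and 1202 in PFC_4MPT. Between 6 and 20 cell barcodes were shared by any pair of libraries. Levels are counts of a gene scaled to the UMI total of the same cells (CPM). Intervals in parentheses are exact 95% Poisson intervals for CPM and exact 95% Clopper-Pearson intervals for shares of cells, and both cover counting error only.

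The choroid plexus is a folded epithelium in the ventricles of the brain that secretes cerebrospinal fluid. In the embryo it forms at the dorsal midline next to the cortical hem, a source of WNT and BMP signals. TTR encodes transthyretin, a carrier of thyroid hormone and retinol that this epithelium secretes in large amounts. FOLR1 encodes the folate receptor alpha, which moves folate into the cerebrospinal fluid, AQP1 a water channel of the apical membrane, and CLIC6 a chloride intracellular channel protein. OTX2 encodes a homeodomain transcription factor that choroid plexus cells need, and PRLR the prolactin receptor. On GRCh38, TTR lies on chromosome 18 from 31557009 to 31598833 and FOLR1 on chromosome 11 from 72189558 to 72196323, both on the plus strand. CLIC6 lies on chromosome 21 from 34668994 to 34718227 and AQP1 on chromosome 7 from 30911853 to 30925517, both on the plus strand. OTX2 lies on chromosome 14 from 56799905 to 56816693 and PRLR on chromosome 5 from 35048756 to 35230487, both on the minus strand. All 6 are annotated as protein-coding.

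Promoters are shown for the members that the RefSeq promoter table held, since OTX2 is itself a DNA-binding factor and the members can be compared in the letters it binds. The table (GRCh38.p14) matched 3 of the 6 members (AQP1, OTX2 and PRLR) with 5 promoters. Each sequence below is the 250 bases before a transcription start, 5′ to 3′ on the strand of the gene, and capitals mark the letters TATAAA.
AQP1, chr7:30911603-30911852, plus: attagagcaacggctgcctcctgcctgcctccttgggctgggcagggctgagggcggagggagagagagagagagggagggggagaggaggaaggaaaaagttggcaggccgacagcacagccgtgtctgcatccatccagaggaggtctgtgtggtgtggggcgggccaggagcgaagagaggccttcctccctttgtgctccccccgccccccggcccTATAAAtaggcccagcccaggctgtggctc
OTX2, chr14:56810480-56810729, minus: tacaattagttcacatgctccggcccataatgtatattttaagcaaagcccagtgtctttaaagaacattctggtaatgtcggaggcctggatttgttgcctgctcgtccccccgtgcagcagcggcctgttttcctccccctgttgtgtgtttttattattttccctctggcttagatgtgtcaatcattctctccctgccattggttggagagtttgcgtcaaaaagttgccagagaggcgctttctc
PRLR, chr5:35230488-35230737, minus: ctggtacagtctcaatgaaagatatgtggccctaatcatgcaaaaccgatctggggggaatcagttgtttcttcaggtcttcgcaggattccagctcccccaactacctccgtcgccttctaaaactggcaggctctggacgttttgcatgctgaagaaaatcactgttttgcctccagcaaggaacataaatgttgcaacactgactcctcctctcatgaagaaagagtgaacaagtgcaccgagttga
Both strands were searched for TAATCC, a core bound by OTX proteins, and for TATAAA, neither of which contains the other. TAATCC was in 0 of the 5 promoters and in 5.62% of the 35116 promoters of this length in the table. TATAAA was in 10.7% of all promoters. It began 30 bases before the start of AQP1, and it was on the other strand of another PRLR promoter, not shown. The AQP1 window had a GC content of 65.2%, against a median of 58% over all promoters, and the printed OTX2 and PRLR windows had 47.2% and 47.6%.

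TTR was the most abundant of the 6 genes in D0 by a wide margin. Its 341749 UMIs in D0 stood beside 36 in HIP_2MPT, 10 in HIP_4MPT, 84 in PFC_2MPT and 14 in PFC_4MPT. Before grafting TTR stood at 6114 CPM (6094 to 6135). At 2MPT it was 3.22 CPM (2.25 to 4.45) in HIP and 5.55 CPM (4.43 to 6.87) in PFC, and at 4MPT 0.466 CPM (0.223 to 0.857) in HIP and 0.830 CPM (0.454 to 1.39) in PFC. D0 was 1102 times as high as the highest graft, and TTR alone made up 0.611% of all UMIs of D0. OTX2 followed in D0, with 1164 UMIs and 20.8 CPM (19.6 to 22.1). In the grafts OTX2 had 3 UMIs in HIP_2MPT, 19 in HIP_4MPT, 3 in PFC_2MPT and 4 in PFC_4MPT, or 0.198 to 0.885 CPM.

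FOLR1 had 470 UMIs in D0 (8.41 CPM, 7.67 to 9.205), and among the grafts 1 in HIP_2MPT, 57 in HIP_4MPT, 1 in PFC_2MPT and 8 in PFC_4MPT. AQP1 had 279 UMIs in D0 (4.99 CPM, 4.42 to 5.61), and among the grafts 2 in HIP_2MPT, 24 in HIP_4MPT, 4 in PFC_2MPT and 3 in PFC_4MPT. CLIC6 was scarce, with 83 UMIs in D0 (1.49 CPM, 1.18 to 1.84), 3 and 2 in the HIP and PFC grafts of 2MPT and 1 in each graft of 4MPT. For these genes and for TTR and OTX2, D0 was above every graft, by 3.17 times (FOLR1), 4.46 times (AQP1), 5.54 times (CLIC6) and 23.5 times (OTX2) over the highest graft.

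PRLR went the other way. Against 45 UMIs in D0 there were 41 in HIP_2MPT, 112 in HIP_4MPT, 53 in PFC_2MPT and 32 in PFC_4MPT. Its level was 0.805 CPM (0.587 to 1.08) in D0. In HIP it was 3.66 CPM (2.63 to 4.97) at 2MPT and 5.22 CPM (4.30 to 6.28) at 4MPT, and in PFC 3.50 CPM (2.62 to 4.58) and 1.90 CPM (1.30 to 2.68). D0 was the lowest library, and no interval of a graft reached the interval of D0. The mean of the 4 grafts was 4.43 times the level of D0.

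**Figure D1:**
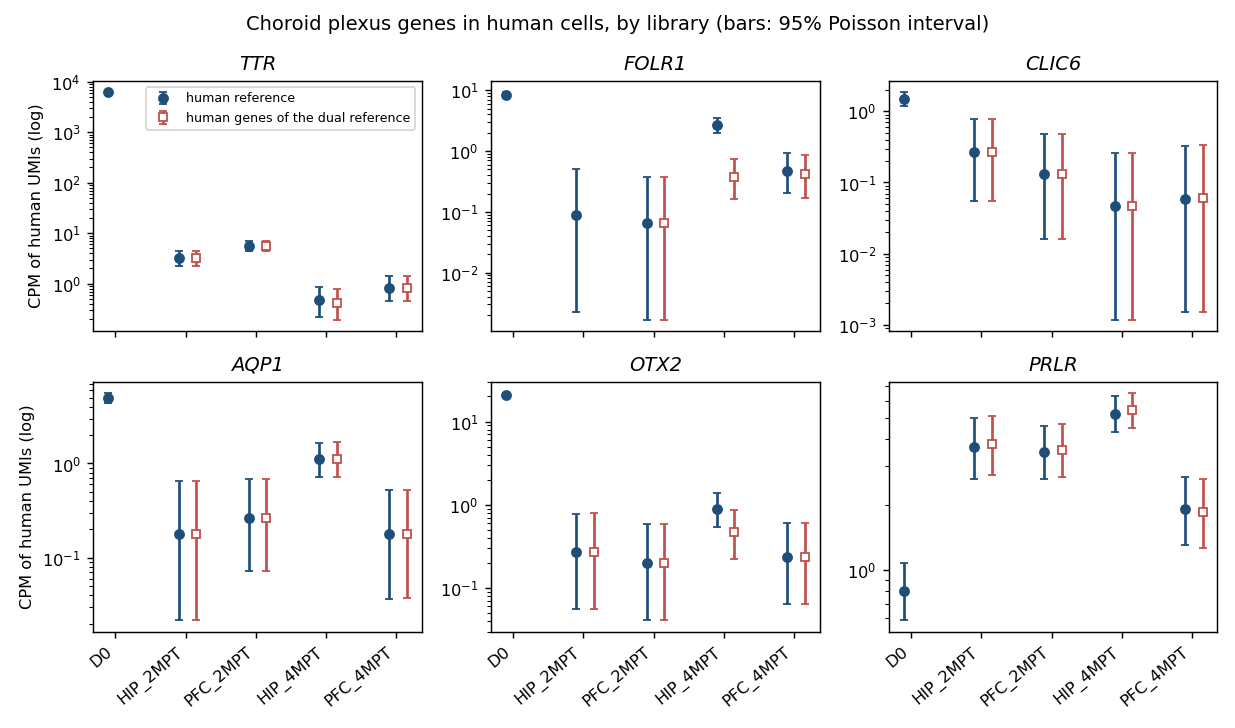
Level of the 6 genes in human cells of the 5 libraries, in CPM of human UMIs on log axes, against the human reference (filled circles) and as human genes of the dual reference (open squares, grafts only), with exact 95% Poisson intervals as bars. TTR, FOLR1, CLIC6, AQP1 and OTX2 are highest in D0 and PRLR is lowest there, and FOLR1 in HIP_4MPT falls from 57 to 8 UMIs in the dual reference.

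Against the human reference alone, FOLR1 and OTX2 were also counted in mouse cells. In HIP_4MPT, the library with choroid plexus-like host cells, FOLR1 had 57 UMIs in human cells against the human reference and 8 as a human gene of the dual reference, so 14.04% were kept. OTX2 kept 10 of 19, whereas AQP1 kept 24 of 24, CLIC6 1 of 1, TTR 9 of 10, and PRLR had 116 against 112. Of 14365 genes with at least 50 UMIs in these cells, 0.0696% kept under 50%. That share was 0.0968% in HIP_2MPT, 0.0384% in PFC_2MPT and 0.0963% in PFC_4MPT. In the 1102 host cells of HIP_4MPT that were also in the human-reference table, FOLR1 had 2374 UMIs against the human reference beside 4995 UMIs of mouse Folr1, or 47.5 for every 100 of the mouse gene. OTX2 had 294 beside 449 of Otx2, or 65.5 for every 100. PRLR, AQP1 and CLIC6 had 1.25, 0.309 and 0.114 for every 100, and TTR 24 UMIs beside 2539458 of mouse Ttr. With the dual reference, D0 was 20.1 times as high as the highest graft for FOLR1 and 44.5 times for OTX2.

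Within D0, TTR was concentrated in few cells and present at a trace in nearly all others. It had a UMI in 4398 of 4885 D0 cells, with a median of 2 UMIs per cell and a maximum of 6171 UMIs in 1 cell, and took up to 29.1% of the UMIs of a cell. The 309 cells with TTR over 10000 CPM were 6.33% of D0 and held 95.3% of its TTR UMIs, and the 100 cells with the most held 73.2%. Those 309 cells also held 92.3% of the FOLR1 UMIs of D0, 91.6% of CLIC6, 83.9% of AQP1 and 61.7% of OTX2. They held 20% of the PRLR UMIs. The cells with high TTR thus carried most of the counts of FOLR1, CLIC6, AQP1 and OTX2, and a smaller part of those of PRLR. PRLR had a UMI in 2.59% of the 309 cells and in 0.612% of the other D0 cells.

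TTR rose with the number of the other 5 genes detected in a cell, as a description over the cells of 1 library. Its median was 245 CPM in the 4323 D0 cells with none of the other genes and 353 CPM in the 402 cells with 1 of them. It was 46180 CPM in 104 cells with 2, 81840 CPM in 42 cells with 3, and 80979 CPM in 14 cells with 4 of them. The share of cells over 10000 CPM went from 2.08% with none to 21.1%, 76.0%, 100% and 92.9%. Cells with more of the genes also had more UMIs in all, with medians from 9344 to 30783.5.

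**Figure D2:**
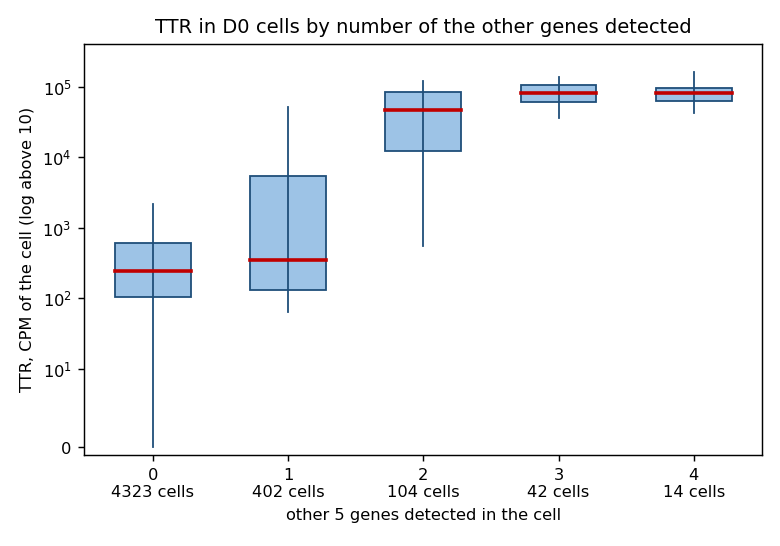
TTR in D0 cells (CPM of the cell, on an axis that is logarithmic above 10 and linear below) by how many of FOLR1, CLIC6, AQP1, OTX2 and PRLR had a UMI in the cell; boxes span the 25th to 75th percentiles with the median in red, and lines the 10th to 90th. The median goes from 245 CPM with none to 81840 CPM with 3.

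The pairs of genes were also found in the same cells. Of 163 D0 cells with FOLR1, 77.3% (70.1 to 83.5) had OTX2, against 6.97% of the cells without FOLR1, and 23.9% had AQP1, against 1.16%. Of 94 cells with AQP1, 54.3% (43.7 to 64.6) had OTX2, and of 44 cells with CLIC6, 63.6% (47.8 to 77.6) had FOLR1. Of 455 cells with OTX2, 27.7% (23.6 to 32.1) had FOLR1, so most OTX2 cells did not show the folate receptor at this depth. Of 36 cells with PRLR, 22.2% (10.1 to 39.2) had FOLR1, against 3.20% of the cells without PRLR. OTX2 was in 27.8% (14.2 to 45.2) of them, against 9.18%.

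Each gene was then looked at in cells picked without it, by a UMI of at least 2 of the other 5 genes. For each gene except TTR, TTR was among those 5, and it had a UMI in 4398 of 4885 D0 cells. In most cells any other member beside TTR was therefore enough to be picked. FOLR1 was in 25.8% (22.1 to 29.9) of the 511 cells so picked and in 0.709% of the other D0 cells. AQP1 was in 11.1% (8.49 to 14.2) against 0.868%, CLIC6 in 7.08% (5.06 to 9.58) against 0.138%, and OTX2 in 60% (53.7 to 66.1) of 255 cells against 6.52%. The picked cells were deeper, with medians of 14907 to 22134 UMIs against 9351 to 9580. With every cell thinned to 1000 UMIs (282 shallower cells left out), FOLR1 was in 14.3% (7.35 to 24.1) of 77 picked cells against 0.530%, and OTX2 in 21.7% (10.9 to 36.4) of 46 against 1.67%.

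PRLR was the weakest in this respect. It was in 2.13% (1.07 to 3.78) of 516 picked cells against 0.572% (0.371 to 0.844) of the others, but at 1.36 CPM (0.726 to 2.33) against 0.690 CPM (0.472 to 0.9745), and these intervals overlap. After thinning it was in 1 of 99 picked cells and in 3 of 4504 others.

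Cells with a UMI of at least 3 of the 6 genes, called carriers here, numbered 160 of 4885 in D0, or 3.28% (2.79 to 3.81). No D0 cell had all 6, and 14 had 5. The carriers had a median of 22134 UMIs, against 9580 in the other D0 cells. TTR was in 160 of 160 carriers at 64021 CPM, OTX2 in 153 at 147 CPM, FOLR1 in 132 at 108 CPM, AQP1 in 56 at 59.8 CPM and CLIC6 in 38 at 18.9 CPM. Carriers were picked by these same genes, so the choice raises these shares and levels, which only describe the cells. TTR had a UMI in 4398 of all 4885 D0 cells, so its share in carriers was nearly fixed beforehand. PRLR was in 11 of 160 at 3.28 CPM (1.75 to 5.61), so the prolactin receptor was seldom seen in the cells that carried the other genes.

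D0 cells fell into 17 clusters, and 2 of them held most of the carriers. Cluster 2 (457 cells, led by TRH, RSPO2, NDNF and GPNMB) held 104 carriers and 57.9% of the TTR UMIs, at 31263 CPM, with OTX2 at 117 CPM, FOLR1 at 38.7 CPM and AQP1 at 32.4 CPM. Cluster 3 (53 cells, led by C11orf88, CXCL14, SOD3 and EGFL6) held 43 carriers and 34.0% of the TTR UMIs, at 80532 CPM, with OTX2 at 150 CPM, FOLR1 at 137 CPM and AQP1 at 20.8 CPM. In both clusters 5 of 6 listed mesenchyme genes were at least 2-fold above the other D0 cells. The naming rule took the list with the highest mean log2 ratio, which was mesenchyme for both, so neither was named for the choroid plexus. That label comes from the score of the lists alone.

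TTR also reached cells outside these clusters. Cluster 13 (325 cells, median 1146 UMIs), led by genes of multiciliated cells such as CCNO, CFAP126 and FOXJ1, had 11252 CPM of TTR and 35.7 CPM (21.8 to 55.1) of OTX2. Cluster 15 (260 cells, median 21183 UMIs), led by mitotic genes such as CENPA and UBE2C, had 1790 CPM of TTR and 13.2 CPM (10.5 to 16.5) of OTX2. The highest PRLR was in cluster 4 (32 cells, led by CYP1B1, ALDH1A3, ALDH1A1 and SIX6, genes of the developing eye), with 11 of the 45 PRLR UMIs of D0 and 16.1 CPM (8.04 to 28.8), while TTR there was at 138 CPM and OTX2 at 14.6 CPM (7.02 to 26.9).

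The trace of TTR in the other D0 cells was close to constant per cell. In 12 of the 17 clusters (3678 cells) the mean was between 2.34 and 3.32 TTR UMIs per cell, although the median depth of these clusters ran from 1089 to 22732 UMIs. Cluster 14 (112 cells) was just above them, with a mean of 5.71. Cluster 8 (446 cells, led by BHLHE22 and NEUROD6) was among them, with TTR in 390 cells and a median depth of 10702 UMIs. In its summed UMIs all 7 listed neuronal genes were at least 2-fold above the other D0 cells. A TTR share of cells at this level is not read as a mark of a cell type, and the source of the trace was not tested. The other genes were not in a fixed ratio to this trace. FOLR1 had 1.01 UMIs (0.485 to 1.86) for every 1000 TTR UMIs in those 12 clusters and 1.68 (1.53 to 1.85) in the carriers. OTX2 had 10.7 (8.77 to 12.95) against 2.29 (2.11 to 2.48), AQP1 3.44 (2.38 to 4.80) against 0.934 (0.819 to 1.06), and PRLR 3.64 (2.55 to 5.04) against 0.0512 (0.0273 to 0.0876). OTX2, AQP1 and PRLR were thus above the ratio of the carriers in those clusters, and FOLR1 and CLIC6 were not distinguishable from it at this depth.

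**Figure D3:**
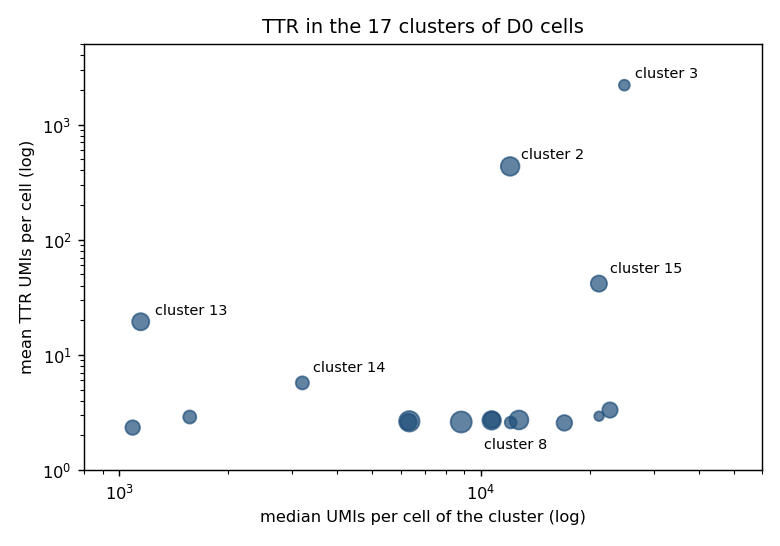
Mean TTR UMIs per cell in the 17 clusters of D0 cells against the median UMIs per cell of the cluster (both axes logarithmic); the area of a point grows with its number of cells. Clusters 2, 3, 13 and 15 stand at 19.4 UMIs per cell or more, cluster 14 at 5.71, and the other 12 clusters between 2.34 and 3.32.

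The D0 carriers also held other genes of the choroid plexus. Of 39 further choroid plexus genes listed, 30 had at least 100 UMIs in D0, and 24 of these were at least 2-fold higher in carriers than in other D0 cells. Over all 12958 genes with that many UMIs, 10.3% were at least 2-fold higher, and the median log2 ratio was -0.16 against 2.76 for the list. At least 5-fold higher were 19 of 30, against 2.53% of all genes. The chemokine CXCL14 had 866 CPM in carriers and 8.61 CPM in other D0 cells, the serotonin receptor gene HTR2C 642 against 11.96, the heparan sulphatase gene SULF1 88.1 against 3.31, and the tight junction gene CLDN3 73.2 against 4.14. CLDN11 had 0 UMIs in carriers, which allows up to 0.931 CPM, and KL and F5 had 1 each. The carriers had a median of 22134 UMIs, and the cause of these low counts was not tested.

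Lists of neighbouring cell types were read in the same way. Of 15 hem and dorsal midline genes, 10 were at least 2-fold higher in carriers, among them WNT3A (13.4 against 1.10 CPM), GDF7 (12.6 against 1.44), WNT5A (33.8 against 3.97) and MSX1 (129 against 12.1). MSX1 and LMX1A were on this list and on the choroid plexus list, and both are counted in each. Of 7 genes of multiciliated cells, 7 were, with CCDC170 at 19.4 against 0.828 CPM, CCNO at 57.0 against 5.89, PIFO at 177 against 12.04 and CFAP126 at 113 against 4.31. Of 7 genes of pigment epithelium and retina, 6 were, with PMEL at 92.4 against 8.09 CPM, RPE65 at 30.3 against 1.37, TYRP1 at 8.58 against 1.54 and MITF at 70.7 against 3.64. Of 4 mesenchyme genes, 3 were, with COL1A2 at 130 against 3.45 CPM, COL1A1 at 11.9 against 1.75 and PDGFRB at 68.4 against 10.8, whereas LUM was at 1.26 against 2.87.

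Endoderm and liver cells also make TTR in quantity. Of the 12 genes listed for them, 9 had 0 UMIs in the carriers, and the only gene with at least 100 UMIs in D0, APOA1, was at 3.03 CPM in carriers and 2.52 CPM in other cells. Of 4 diencephalon genes 0 were 2-fold higher, with TCF7L2 at 44.9 against 37.7 CPM and LHX9 at 11.9 against 16.8. All 7 neuronal genes were below 0.5 times the other cells (DCX 163 against 512 CPM), as were all 6 cycling genes (TOP2A 97.7 against 265 CPM) and 4 of 7 radial glia genes (VIM 1432 against 4038 CPM). Among the rest, S100B was at 17.7 against 1.94 CPM.

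The genes whose level was most like that of the 6 genes were sought by Pearson's r over 4885 D0 cells between a gene's log-normalised level and the mean of the 6, which is a description since all cells come from 1 library and differ in depth. The first were SERPINF1 (r = 0.579), which encodes the secreted factor PEDF, HTR2C (0.571), the channel gene TRPM3 (0.545) and the carbonic anhydrase gene CA2 (0.531), followed by PLS3, APOE, GPC3, SLC7A8, PCP4 and FAM81B (0.499). SERPINF1 was at 339 CPM in carriers and 19.4 CPM in other D0 cells, TRPM3 at 385 against 16.7, and CA2 at 283 against 14.4.

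In the grafts almost no cell showed these genes together. Carriers numbered 0 of 8277 human cells in HIP_2MPT, 1 of 6913 in HIP_4MPT, 0 of 5952 in PFC_2MPT and 0 of 8363 in PFC_4MPT. Taking 3 counts as the limit of a count of 0, the zeros of HIP_2MPT, PFC_2MPT and PFC_4MPT allow shares of up to 0.0362%, 0.0504% and 0.0359% of cells with that many genes detected, and their exact intervals reach 0.0446%, 0.0620% and 0.0441%. The carrier of HIP_4MPT had AQP1, OTX2 and PRLR without TTR. Cells with a UMI of at least 2 of the 6 genes numbered 9 in all grafts, 2 in PFC_2MPT and 7 in HIP_4MPT. The rule of 3 genes was not equal in D0 and grafts. TTR was in 160 of 160 D0 cells with at least 2 of the other 5 genes, so 2 of those were enough there. In the grafts TTR was in 8 of 6913 cells (HIP_4MPT) to 65 of 5952 (PFC_2MPT), so nearly every cell needed 3 of them. The cells of PFC_2MPT each had TTR and 1 other gene. Among the 7 cells of HIP_4MPT, the cell with TTR and PRLR and the cell with TTR and FOLR1 also had just 1 other gene. Graft cells with at least 2 of the other 5 genes were thus fewer than 7, all of HIP_4MPT. The depth of the grafts was lower, and with all cells thinned to 1000 UMIs, 14 D0 cells and 0 graft cells were carriers.

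The TTR left in the grafts was low in every cell that held it. It was in 34 cells of HIP_2MPT, 8 of HIP_4MPT, 65 of PFC_2MPT and 12 of PFC_4MPT, with at most 4 UMIs in a cell. At 2MPT these UMIs lay mainly among cycling and glial cells. The cycling-like cluster of HIP_2MPT led by CDC20, TOP2A and UBE2C held 18 of 36 UMIs (523 cells, 20.6 CPM, 12.2 to 32.6). That of PFC_2MPT led by DLGAP5, UBE2C and ASPM held 53 of 84 (541 cells, 25.1 CPM, 18.8 to 32.8). A cluster of 23 cells of PFC_2MPT led by GAD2 and DLX2, also cycling-like by the naming rule, is not counted in this. The clusters with TNC, MT3 and BCAN among their leading genes held 13 in HIP_2MPT (517 cells, 17.8 CPM, 9.503 to 30.5) and 20 in PFC_2MPT (586 cells, 11.7 CPM, 7.15 to 18.1). The largest clusters led by neuronal genes without a TTR UMI had upper limits of 1.43 to 1.92 CPM.

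At 4MPT the same kinds of cluster were nearly empty of TTR. The cycling-like cluster of HIP_4MPT led by CDC20 and UBE2C held 1 UMI (265 cells, 0.629 CPM, 0.0159 to 3.51). That of PFC_4MPT led by the same genes held 1 (441 cells, 0.645 CPM, 0.0163 to 3.59). Their upper limits were below the lower limits of the cycling-like clusters at 2MPT led by UBE2C and other mitotic genes. The clusters led by GPX3 and MT1E or by APOE and MT1E held 1 UMI each. In PFC_4MPT, 11 of the 14 UMIs were instead in cluster 2 (747 cells, led by CDH6 and interneuron genes such as DLX5 and GAD2), at 7.45 CPM (3.72 to 13.3). The cluster of HIP_4MPT led by DLX and GAD genes had 0 in 331 cells, which allows up to 3.57 CPM. By the naming rule this cluster was also cycling-like, with 5 of 6 listed cycling genes raised, whereas cluster 2 of PFC_4MPT was left unnamed. In HIP_4MPT, 6 of the 10 UMIs were in the cluster led by PPP1R17, NEUROD4 and EOMES.

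Whether the 6 genes differed between 4MPT and 2MPT was tested on UMIs summed over the human cells of each library, with the HIP and PFC libraries as the 2 libraries of a stage. Such sums cannot tell fewer cells of a type from less RNA per cell. TTR was lower at 4MPT in both sites, by 6.90 times in HIP and 6.68 times in PFC. Its log2(Fold change) was -2.71 (SE 0.53, adjusted p = 0.0278, quasi-likelihood test of edgeR, adjusted over 18127 genes after Benjamini and Hochberg), and 2.49% of these genes passed the threshold (14.3% at an unadjusted p under 0.05). This call was lost without HIP_4MPT (-2.29, adjusted p = 0.268) and without PFC_4MPT (-3.21, adjusted p = 0.145), and over all alternatives the adjusted p lay between 2.83e-06 and 0.268. PRLR did not pass, with a log2(Fold change) of 0.04 (SE 0.48, adjusted p = 0.984).

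FOLR1, CLIC6, AQP1 and OTX2 had too few UMIs in the 4 grafts for the filter and were left out of that test. Without the filter FOLR1 was higher at 4MPT (4.30, SE 0.84, adjusted p = 2.05e-05). With human genes of the dual reference and no filter, an alternative added after the data had been seen, its log2(Fold change) was 3.21 (SE 1.43) and the call was lost (adjusted p = 0.267). FOLR1 passed the filter in some other settings against the human reference. Its log2(Fold change) was 4.48 without HIP_2MPT, 4.09 without PFC_2MPT and 5.00 without PFC_4MPT, each with 1 library left in a stage. In a fit of 3 groups with D0 it was 4.32 and not called (adjusted p = 0.0539, edgeR). Without HIP_4MPT it did not pass the filter. The 57 FOLR1 UMIs of HIP_4MPT against the human reference were 8 in the dual reference. There FOLR1 had 0 UMIs in HIP_2MPT, 1 in PFC_2MPT and 7 in PFC_4MPT. These counts are too few to settle whether the human gene changed. CLIC6, AQP1 and OTX2 passed in no setting that tested them, with adjusted p of 0.878, 0.467 and 0.655 without the filter. Between PFC and HIP, with the stage as a covariate, 0.0827% of genes passed (2.44% at an unadjusted p under 0.05). TTR was at 0.84 (SE 0.56) and PRLR at -0.72 (SE 0.51) for PFC against HIP, and neither passed.

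The few counts of the other genes in grafts also lay in particular clusters. In HIP_4MPT, 18 of 24 AQP1 UMIs (21.7 CPM, 12.9 to 34.3) and 10 of 10 OTX2 UMIs of the dual reference were in cluster 8, a group of 230 cells led by RSPO3, GJA1, ANGPT1, NTRK2 and SPARCL1. Of the listed astrocyte genes, 6 of 6 were raised in this cluster. Of the 9 graft cells with at least 2 of the 6 genes, 4 were in this cluster, each with AQP1 and OTX2. It held 0 TTR UMIs, which allows up to 4.45 CPM. FOLR1 of the dual reference had 6 of 8 UMIs in cluster 10 of HIP_4MPT (430 cells, led by GPX3 and MT1E) and 6 of 7 in cluster 9 of PFC_4MPT (509 cells, led by APOE and MT1E), both with at least 5 of 6 listed astrocyte genes raised.

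PRLR, the member at a higher level in every graft than in D0, was spread over neuronal and progenitor clusters of the grafts. Its highest level was in cluster 4 of HIP_4MPT (858 cells, led by PPP1R17, NEUROD4 and EOMES, genes of intermediate progenitors and new neurons), with 43 of 112 UMIs and 17.2 CPM (12.4 to 23.1). The clusters led by PPP1R17 and EOMES had 8.17 CPM (4.76 to 13.1) in PFC_2MPT, 6.52 CPM (2.39 to 14.2) in PFC_4MPT and 1.96 CPM (0.638 to 4.58) in HIP_2MPT. The counting interval of HIP_2MPT lies below that of HIP_4MPT, with 1 library each and no test, and its highest level was in the cycling-like cluster (10.3 CPM, 4.72 to 19.6).

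**Figure D4:**
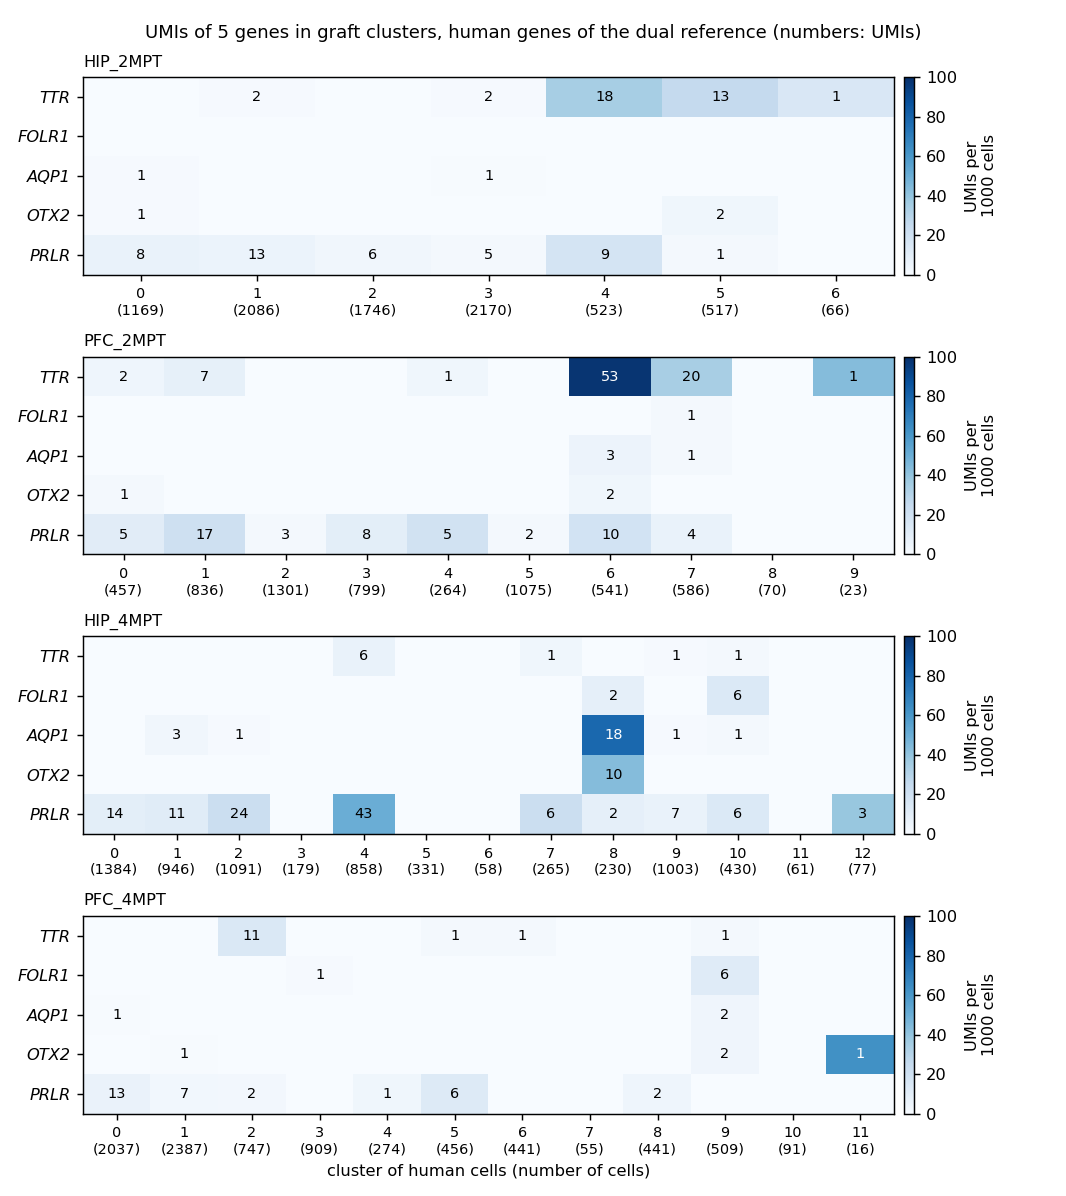
UMIs of TTR, FOLR1, AQP1, OTX2 and PRLR in the clusters of human cells of each graft library, as human genes of the dual reference; the number in a cell is the UMI count and the colour UMIs per 1000 cells, and cells per cluster stand in parentheses. TTR counts of 18 and 53 lie in cycling clusters at 2MPT, AQP1 and OTX2 of HIP_4MPT in cluster 8, and 43 PRLR UMIs in cluster 4 of HIP_4MPT.

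The mouse orthologues were read in host cells of the same libraries, as mouse genes of the dual reference. Ttr had 243 UMIs in HIP_2MPT, 2760427 in HIP_4MPT, 0 in PFC_2MPT and 2747 in PFC_4MPT. In HIP_4MPT there were also 5502 UMIs of Folr1, 1274 of Prlr, 988 of Clic6, 493 of Otx2 and 374 of Aqp1. In the other libraries these genes had between 0 and 14 UMIs, the 14 being Otx2 in PFC_4MPT.

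HIP_4MPT held a population of choroid plexus-like host cells, and the other libraries had almost none. Host cells with at least 3 of the 6 mouse genes numbered 341 of 2071 in HIP_4MPT (16.5%, 14.9 to 18.1), 1 of 1202 in PFC_4MPT, 0 of 916 in HIP_2MPT and 0 of 772 in PFC_2MPT, and 99 of them had all 6. Ttr was in 2071 of 2071 host cells of HIP_4MPT, so 2 of the other genes were enough there. In the other libraries Ttr was in 0 (PFC_2MPT) to 9 (PFC_4MPT) host cells, so the rule was stricter. Host cells with just 2 of the 6 genes numbered 1 in HIP_2MPT, 0 in PFC_2MPT and 3 in PFC_4MPT. In these 341 carriers Ttr made up 575324 CPM of mouse UMIs, Folr1 1147 CPM, Prlr 275 CPM, Clic6 214 CPM, Otx2 107 CPM and Aqp1 80.5 CPM. Of the carriers, 225 were in host cluster 16 (231 cells, all of HIP_4MPT), in which 18 of 18 other mouse choroid plexus genes were raised. Host cluster 15 (242 cells, 238 of them of HIP_4MPT) held 108 more, with Ttr at 597235 CPM and 14 of the 18 genes raised. Its cells were shallow (median 1372.5 UMIs, against 18031 in cluster 16), and most of them had fewer than 3 of the 6 genes detected.

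The mouse and the human carriers differed most in the prolactin receptor. Prlr had a UMI in 72.7% of the 341 mouse carriers (median 11885 UMIs) and PRLR in 6.88% of the 160 human carriers (median 22134 UMIs), although the human cells were deeper. Clic6 was in 80.9% against 23.8% for CLIC6, and Folr1 in 95.3% against 82.5% for FOLR1, while Otx2 was in 60.4% against 95.6% for OTX2. Both sets of carriers were picked by these same genes, which raises the shares in each. Species, age, tissue and reference differ between these cells, so the values are set side by side with no test. The genes most like the mean of the mouse orthologues over 4961 host cells were Ecrg4 (r = 0.850), Sostdc1 (0.797), Igfbp2, Spint2, Wfdc2, Enpp2, 2900040C04Rik, Kl, Lbp and Kcnj13 (0.666). Kl, which encodes klotho, was at 492 CPM in mouse carriers, whereas KL had 1 UMI in the human ones.

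Mouse Ttr also reached every other group of barcodes of HIP_4MPT. It was in 2071 of 2071 host cells, with a median of 11 UMIs in host cells that were not carriers and 6740 in carriers. In human cells of HIP_4MPT it was in 6910 of 6913, with a mean of 9.27 to 22.6 UMIs per cell in the 13 clusters. In the other libraries it was in 0.918% (HIP_2MPT), 0.134% (PFC_2MPT) and 1.20% (PFC_4MPT) of human cells. The other mouse genes kept nearly the ratio to Ttr that they had in host cells. Folr1 had 1.99 UMIs (1.94 to 2.05) for every 1000 of Ttr in host cells and 1.79 (1.53 to 2.08) in human cells, and Otx2 0.179 (0.163 to 0.195) and 0.1497 (0.0819 to 0.251). For Aqp1, Clic6 and Prlr the intervals in human and host cells overlapped too. In mixed barcodes, Prlr (0.287, 0.201 to 0.397) was below its interval in host cells, and the interval of Folr1 (2.29, 2.03 to 2.57) overlapped that in host cells.

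**Figure D5:**
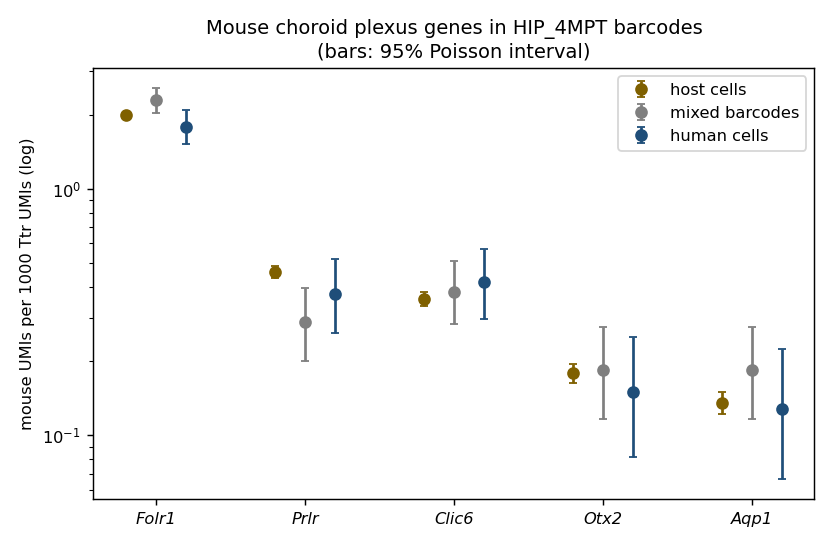
UMIs of 5 mouse genes for every 1000 mouse Ttr UMIs (log axis) in host cells, mixed barcodes and human cells of HIP_4MPT, with exact 95% Poisson intervals as bars. Within each gene the values of human cells lie close to those of host cells, such as 1.79 beside 1.99 for Folr1.

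In the test of host cells between PFC and HIP, Ttr was lower in PFC (log2(Fold change) -9.21, SE 1.45, adjusted p = 0.0404, edgeR), as was Otx2 (-4.11, SE 0.58, adjusted p = 0.0284), and 0.593% of 11639 genes passed (8.51% at an unadjusted p under 0.05). Prlr did not (-4.09, adjusted p = 0.247), and Folr1, Clic6 and Aqp1 were left out by the filter. Without the filter all 6 were called as lower in PFC, among 712 of 21315 genes called (3.34%). Adjusted p in edgeR was 6.35e-21 for Folr1, 4.67e-17 for Clic6, 2.09e-12 for Aqp1 and 3.23e-10 for Prlr (-4.07). The fit of site and stage left 1 residual degree of freedom, and nearly all UMIs of these genes came from HIP_4MPT. Folr1 had 5502 UMIs there, 6 in PFC_4MPT, 0 in HIP_2MPT and 1 in PFC_2MPT. These calls thus rest on 1 library and do not show a difference between the sites at 2MPT. With over 1000 UMIs required of a host cell both calls were lost at nearly the same folds, for Ttr at -9.46 (adjusted p = 0.138) and for Otx2 at -4.08 (adjusted p = 0.0713). They were also lost with no stage in the fit, at -8.95 and -3.98 (adjusted p = 1.000 for each). With a host share under 0.1, 0 of 10927 genes were called, and Ttr was at -8.28 (adjusted p = 0.382). Between 4MPT and 2MPT, Ttr was at 10.82 (SE 4.38, adjusted p = 0.366) and Otx2 at 6.63 (SE 2.07, adjusted p = 0.334). With the graft site as a block both passed there (adjusted p = 0.0352), DESeq2 called Otx2 (adjusted p = 0.0163) and not Ttr (adjusted p = 0.182), and without HIP_4MPT Ttr was at 2.85 (adjusted p = 0.732). There edgeR called 0 of 11639 genes (0%), with 1611 (13.8%) at an unadjusted p under 0.05, and DESeq2 called 196. Nothing in the labels says that the libraries of a stage came from separate animals, so these p-values measure only the spread between the libraries.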

How the data were processed

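Single cells of the 5 libraries were captured with the 10x Genomics 3′ V3 chemistry. The authors deposited counts of UMIs per gene and barcode, without normalization, against a human reference for all libraries and against a human-mouse dual reference for grafts. The submitters' processing notes name Cell Ranger 3.1 and R 4.1.1, whereas the file headers give Cell Ranger 3.1.0 for D0 and 5.0.0 for grafts, so annotation and release differ between D0 and grafts. Mouse genes carry the prefix mm10 in the files.

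Human cells passed with more than 500 UMIs and 500 genes, log10 genes divided by log10 UMIs above 0.8, mitochondrial UMIs below a share of 0.15 and, in grafts, human UMIs above 0.8. Host cells passed with human UMIs below 0.2 and more than 500 mouse UMIs. No doublet caller was run, and only mixed barcodes were left out as doublets of both species. Cells were clustered per library (host cells together) with scanpy 1.11.5 in Python 3.11.15 (2000 variable genes, 30 principal components, 15 neighbours, resolution 0.8). A name such as cycling-like needed 3 or more listed markers.

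UMIs were summed per library and tested in R 4.3.3 with edgeR 4.0.16 (filterByExpr, TMM, quasi-likelihood test, Benjamini-Hochberg threshold 0.05). DESeq2 1.42.0, other filters, references and cell limits, thinning to 1000 UMIs, the graft site as a block and leaving out each library were alternatives. The procedure was tested on simulated data, for genes with at least 100 UMIs and with the same dispersion of 0.1 for every gene. The rates below hold for that setting and do not give the power for scarcer genes or for a larger spread between libraries. Between stages in human cells it recovered 74% of the 4-fold and 97% of the 8-fold changes (15307 genes, 11 false calls), 60% and 100% between sites, 67% and 95% between stages in host cells (10210 genes) and 63% and 98% between sites.

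Genes named were the 6 members and their mouse orthologues, the 10 genes most like them by Pearson's r in D0 and in host cells (at least 100 UMIs), and of each list the 4 genes with at least 100 UMIs and the highest ratio between D0 carriers and D0 cells with no member. Other genes, among them CLDN11, KL, F5, DCX, TOP2A, VIM and leading genes of clusters, were named after their values were seen. A few genes are not reported here. The members and lists were chosen with earlier results of these data known. Gene positions are from GENCODE 44 on GRCh38.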

Additional observations from a re-analysis of the deposited data

Results flagged for a closer look

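For AQP1 and PRLR the ratio of levels between 4MPT and 2MPT was above 1 in the hippocampus and below 1 in the prefrontal cortex. The ratio of the level at 4MPT to that at 2MPT was 6.26 in HIP and 0.673 in PFC for AQP1, on 2 to 24 UMIs a library. It was 1.42 in HIP and 0.542 in PFC for PRLR, on 32 to 112 UMIs a library. AQP1 in PFC had 4 UMIs at 2MPT and 3 at 4MPT. The counting intervals of 2MPT and 4MPT overlapped for AQP1 in PFC and for PRLR in both sites, so an opposite direction is not shown. With 1 library for each site and stage the difference between the sites was not tested.

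Mixed barcodes, which enter no comparison, also held mouse Ttr. It had 79 UMIs in the 560 mixed barcodes of HIP_2MPT, 71 of them in 1 barcode. It had 125471 UMIs in the 628 mixed barcodes of HIP_4MPT, where 627 had at least 1 and the median was 21. It had 1003 UMIs in the 2278 mixed barcodes of PFC_4MPT, where 30 had at least 1. PFC_2MPT had 0 in 76 mixed barcodes.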

How the results depend on the processing

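That 5 of the 6 genes were higher in D0 than in every graft held under every setting of cells and reference tried. This is a description, since the genes were chosen after low graft values of some of them had been seen. Over the 5 libraries, levels stayed within their main intervals in 30 of 30 cases with over 1000 UMIs, in 27 with a mitochondrial share under 0.10 and in 24 after thinning. Over the grafts alone, the libraries to which these settings apply, they did in 24 of 24 with a human share over 0.9 and in 21 with the dual reference. Carriers in D0 (160) numbered 541 with at least 2 genes, 56 with at least 4, 56 with at least 3 of the genes other than TTR, and 14 after thinning. Carriers in grafts (1) numbered 9, 0, 0 after thinning and 2 in the dual reference. Host carriers of HIP_4MPT (341) numbered 128 after thinning. Genes called between stages in human cells (452) numbered 689 with DESeq2, 1431 without the filter, 1450 with the dual reference and no filter, and 79 to 1548 with a library left out (79 without PFC_4MPT, 107 without HIP_4MPT, 1548 without PFC_2MPT). Between sites (15) they numbered 7 with DESeq2, 36 without the filter, 0 with no stage in the fit, 33 with a human share over 0.9, 33 with a mitochondrial share under 0.10 and 5 with over 1000 UMIs. In host cells, calls between stages (0) numbered 196 with DESeq2, and calls between sites (69) numbered 712 without the filter, 0 with no stage and 0 with a host share under 0.1. For Ttr between sites in host cells, the call was also lost with DESeq2 size factors in edgeR (adjusted p = 0.0964). The cause of these changes was not tested.

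With the graft site as a replicate block, 733 genes were called between stages in human cells and 58 in host cells. TTR kept its call under the block (log2(Fold change) -2.69, adjusted p = 0.00217, edgeR), and PRLR, which passed in no setting, turned to -0.11. PRLR also turned to -0.015 with a human share over 0.9, and it lay between -0.80 (without HIP_4MPT) and 0.55 (without PFC_4MPT) with a library left out. The libraries share no number that marks a litter or day, so the block stands for the site alone.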

Other observations

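Other choroid plexus genes differed in their levels over whole libraries. HTR2C was at 56.7 CPM over all D0 cells and between 0.0661 and 0.559 CPM in the grafts, the keratin gene KRT8 at 19.6 CPM and between 0.0593 and 0.357 CPM, and CLDN3 at 9.04 CPM and between 0 and 0.356 CPM. CLU, which encodes clusterin and is also made by astrocytes, was at 163 CPM over all D0 cells (627 CPM in the carriers) and at 78.5 CPM in HIP_2MPT, 194 CPM in PFC_2MPT, 722 CPM in HIP_4MPT and 357 CPM in PFC_4MPT. KRT8 was named after its values were seen, and these values have no test.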
